A study of Mus musculus with 36 samples.

Results

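The comparison described here is 1 of several in a study of mouse cells from the stroma of human oral tumours. It sets 3 arrays of the second VDH15 experiment whose tumours carried shCD36 against 3 arrays whose tumours carried the non-targeting shRNA PLKO, both on control diet, out of 36 arrays in all. The arrays were chosen by their titles and diet labels, and the description covers the 12823 genes that passed an expression filter. Each side is 1 biological replicate, and its 3 arrays are labelled technical replicates. All errors and p-values below therefore measure the spread between such arrays, and the difference has no biological replicate check.

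VDH15 is an oral carcinoma cell line, grown orthotopically as xenografts in NOD-SCIDγ (NSG) mice, hosts that lack lymphocytes and have an impaired cytokine response. The shRNA was carried by the human tumour cells, whereas the arrays (Affymetrix HT MG-430 PM) read mouse genes in the cells called the neural fraction of the stroma. CD36, the silenced gene, codes for a membrane receptor that takes up fatty acids. Mouse Cd36 stood at 5.10 ± 0.25 log2 (SD, 3 non-targeting arrays) and 5.32 ± 0.26 log2 (SD, 3 shCD36 arrays), a difference of 0.23 ± 0.14 (SE, adjusted p = 0.619, limma). It cannot check the knockdown, which was in human cells. The second VDH15 experiment has 4 groups of 3 arrays, non-targeting and shCD36 on control diet and on a diet rich in palmitic acid (PA), a saturated fatty acid. An experiment with the carcinoma line SCC25 has the same 4 groups. The sources used here do not give how many mice or RNA extracts stand behind the arrays of one group, nor how the cells of the neural fraction were selected.

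Type I interferons, such as interferon beta, are secreted when cells sense foreign or misplaced nucleic acid. They bind a receptor on the same and on neighbouring cells and act through factors such as Stat2 and Irf9 on promoters that hold an interferon-stimulated response element. Interferon-stimulated genes block viral RNA and protein production, and several code for chemokines that attract T cells and natural killer cells. Fibrillar collagens, the other main subject here, are secreted mostly by fibroblasts and give the stroma its tensile strength.

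In shCD36 tumours Ifnb1, many interferon-stimulated genes and several chemokine genes were lower, and 3 collagen genes were higher. Single genes with other roles, such as Il33, Zfp945 and Sprr2a1 among the lower and Slc7a2 and Serpina9 among the higher, differed by similar amounts. On log2 values as deposited, limma called 85 of 12823 genes at an adjusted p under 0.05 (Benjamini-Hochberg). Of these 69 were lower (0.538% of the genes tested) and 16 higher (0.125%). Among them 30 were lower and 8 were higher by at least 1 log2, that is, at least a doubling. Another 41 genes differed by at least 1 log2 and were not called, and 1387 genes had an unadjusted p under 0.05. In every one of the 85 the arrays of both sides did not overlap. Over all genes, the shCD36 arrays lay wholly below the non-targeting arrays in 9.94% and wholly above them in 10.2%. The median difference over all genes was 0.0089 log2.

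**Figure D1:**
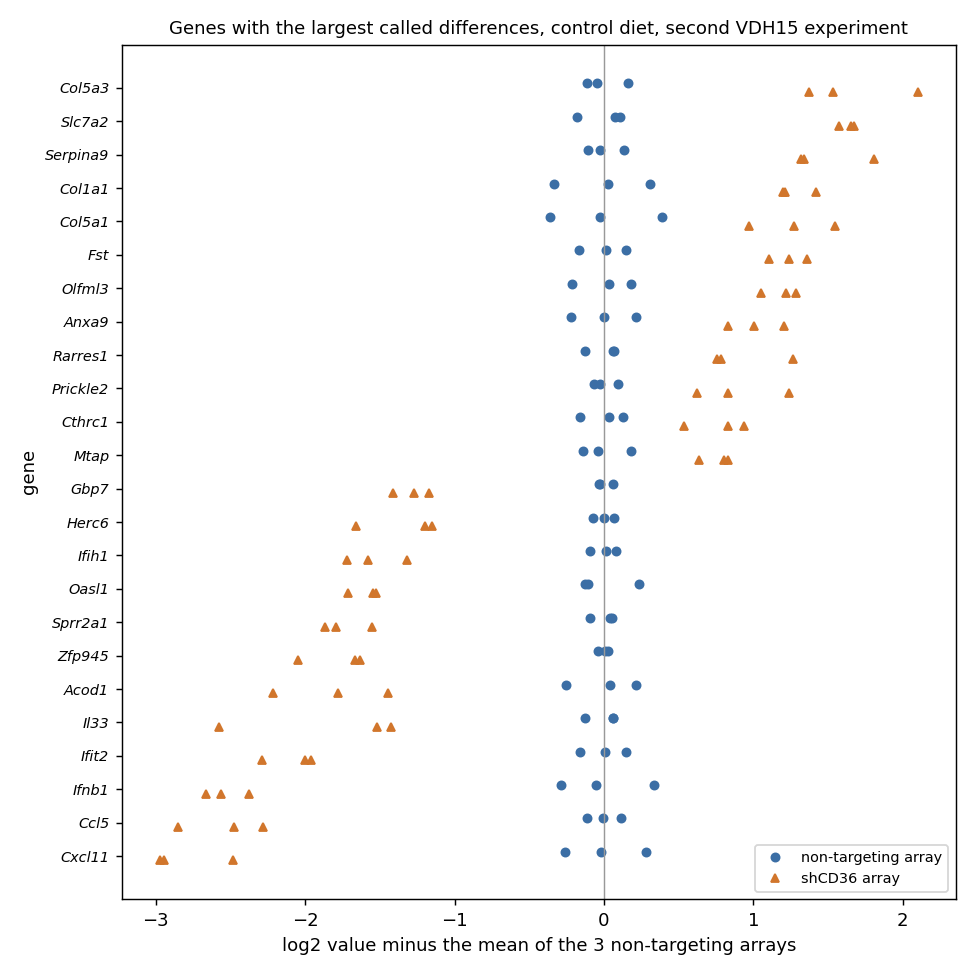
Log2 value of each array minus the mean of the 3 non-targeting arrays (x axis) for the 12 called genes with the highest and the 12 with the lowest difference (y axis). Circles are non-targeting and triangles shCD36 arrays of the second VDH15 experiment on control diet, and in all 24 genes they lie on separate sides, from Cxcl11 at −2.80 to Col5a3 at 1.67 log2.

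Arrays of 1 side correlated at 0.989 to 0.994 across probe sets, and arrays of different sides at 0.984 to 0.989. The spread was estimated over the 12 arrays of the second VDH15 experiment. One of them, replicate 1 of the non-targeting group on PA-rich diet, stood apart on the first principal component (54.6, against 17.2 and 20.5 in the other arrays of its group). It is not part of the control-diet comparison, but it widens the estimated spread: without it 267 genes were called, 181 lower (1.41%) and 86 higher (0.671%), and all 85 were among them. Of the genes that define Schwann cells and glia, some were measured. Sox10 lay at 6.81, Mbp at 6.67 and Erbb3 at 9.07 log2 on average over the 6 arrays, whereas S100b, Foxd3, Cdh2, Gfap, Mag and Fabp7 were under the expression filter of 5.19 log2. Genes that mark endothelium (Cdh5, 11.1 log2 on the non-targeting side) and fibroblasts (Col1a1, 11.45 log2) were also measured in this fraction. The list of basal keratinocyte genes had a mean level of 10.596 to 10.64 log2 on the non-targeting arrays. The Schwann cell and glial list had 7.848 to 7.875 log2 on those arrays. Both levels cover only members that passed the filter, 13 of 13 on the array for basal keratinocytes and 10 of 16 for Schwann cells and glia.

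The promoters of 4 genes are shown because their genes were called lower and hold the core of an interferon-stimulated response element. They are the 250 bases before the annotated start, taken from RefSeq (build GRCm38.p6), in lower case with matches of GAAANNGAAA on either strand in capitals.
Ifit1 (chr19:34640639-34640888, plus strand): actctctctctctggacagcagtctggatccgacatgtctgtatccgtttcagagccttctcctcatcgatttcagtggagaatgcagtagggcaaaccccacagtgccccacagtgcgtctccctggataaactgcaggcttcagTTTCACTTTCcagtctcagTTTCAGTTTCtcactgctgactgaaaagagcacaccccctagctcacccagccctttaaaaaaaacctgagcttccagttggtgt
Ifit3 (chr19:34583279-34583528, plus strand): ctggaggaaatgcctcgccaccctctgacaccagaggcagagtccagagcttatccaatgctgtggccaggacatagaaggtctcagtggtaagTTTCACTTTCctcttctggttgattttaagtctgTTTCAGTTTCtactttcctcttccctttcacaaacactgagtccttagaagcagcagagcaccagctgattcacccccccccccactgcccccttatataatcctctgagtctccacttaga
Cxcl10 (chr5:92348890-92349139, minus strand): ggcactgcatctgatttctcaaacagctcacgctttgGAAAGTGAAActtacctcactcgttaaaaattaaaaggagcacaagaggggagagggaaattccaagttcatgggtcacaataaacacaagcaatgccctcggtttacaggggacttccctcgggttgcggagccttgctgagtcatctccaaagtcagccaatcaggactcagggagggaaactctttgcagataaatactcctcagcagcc
Rsad2 (chr12:26456453-26456702, minus strand): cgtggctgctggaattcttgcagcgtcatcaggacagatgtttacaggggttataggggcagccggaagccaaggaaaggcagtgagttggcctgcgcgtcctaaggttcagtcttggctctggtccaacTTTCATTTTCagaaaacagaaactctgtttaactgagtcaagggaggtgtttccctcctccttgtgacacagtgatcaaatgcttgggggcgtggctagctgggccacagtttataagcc
In Ifit1 the matches begin 104 and 85 bases before the start, and in Ifit3 156 and 122 bases before it. Cxcl10 has 1 match, 213 bases before the start, and Rsad2 1, 120 bases before the start. The motif was found in 2.98% of all 32851 promoter windows of this length, with overlapping matches counted. Promoters were available for 49 of the 69 genes called lower, of which 9 (18.4%) held it in at least 1 window, and for 9 of the 16 genes called higher, of which 0 did. Of 10269 tested genes with a promoter, 301 (2.93%) held it. Among the genes called lower, Ifnb1, Ifit2, Oasl1, Ifih1 and Herc6 held 0 matches in their windows. A match is a description of the letters in this window and says nothing of which factor was bound.

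The ligand gene was called lower. Ifnb1, which codes for interferon beta, measured 6.92, 7.30 and 6.68 log2 on the non-targeting arrays and 4.40, 4.59 and 4.30 log2 on the shCD36 arrays. Its difference was −2.54 ± 0.20 log2 (SE, n = 3 arrays a side, adjusted p = 0.000101, limma). The sides did not overlap, and every shCD36 array lay below the expression filter of 5.19 log2, so the size of the difference is not given as a fold.

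Of the sensors of cytoplasmic RNA, 1 was called. Ifih1, which codes for the double-stranded RNA sensor MDA5, measured 9.86, 10.04 and 9.97 log2 on the non-targeting side and 8.23, 8.63 and 8.37 on the shCD36 side, a difference of −1.54 ± 0.17 (adjusted p = 0.00103). Ddx58, which codes for the related sensor RIG-I, differed by −0.55 ± 0.15 and did not pass (adjusted p = 0.191). Stat2, a signal carrier of the type I receptor, fell by 0.78 ± 0.11 log2, while its partner Irf9 (−0.29 ± 0.09) and the amplifying factor Irf7 (−0.32 ± 0.17) did not pass. Trex1, a nuclease that removes cytoplasmic DNA, fell by 0.74 ± 0.14 log2.

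Antiviral effectors made up most of the interferon response list, of which 25 genes were listed, 20 were on the array under these names and all 20 passed the filter. Of these, 10 were called lower and 0 higher, and all 20 had a difference below 0. In 19 the shCD36 arrays lay wholly below the non-targeting arrays, against 9.94% of all genes. The list median was −0.81 log2, against 0.0089 over all genes. Ifit2, which codes for an RNA-binding inhibitor of viral translation, measured 9.72, 9.89 and 10.03 log2 without CD36 silencing and 7.88, 7.92 and 7.59 with it. That is a difference of −2.08 ± 0.17 (adjusted p = 0.000101). Its relatives Ifit1 (−1.28 ± 0.13) and Ifit3 (−1.12 ± 0.15) fell as well. Ifit1 measured 11.32, 11.54 and 11.47 log2 against 10.29, 10.13 and 10.08. The oligoadenylate synthetase-like genes Oasl1 (−1.59 ± 0.15) and Oasl2 (−0.88 ± 0.13) fell, whereas Oas2 (−0.33 ± 0.12) and Oas3 (−0.56 ± 0.13) did not pass. Rsad2, which codes for viperin, fell by 0.90 ± 0.12 log2. Its genomic neighbour Cmpk2, which is not on the list and codes for a mitochondrial nucleotide kinase, fell by 1.10 ± 0.14 log2. The GTPase genes Gbp3 (−1.02 ± 0.19) and Mx2 (−1.09 ± 0.22, adjusted p = 0.0488) fell, and Mx1 (−0.50 ± 0.13), Gbp2 (−0.83 ± 0.24) and Irgm1 (−0.49 ± 0.25) did not pass. Usp18 (−0.43 ± 0.19), which damps the receptor, and Xaf1 (−0.30 ± 0.18) did not pass either. Without the PA array that stood apart, 14 of the 20 were called lower. Mx2 was called in 8 of 22 alternative settings only.

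**Figure D2:**
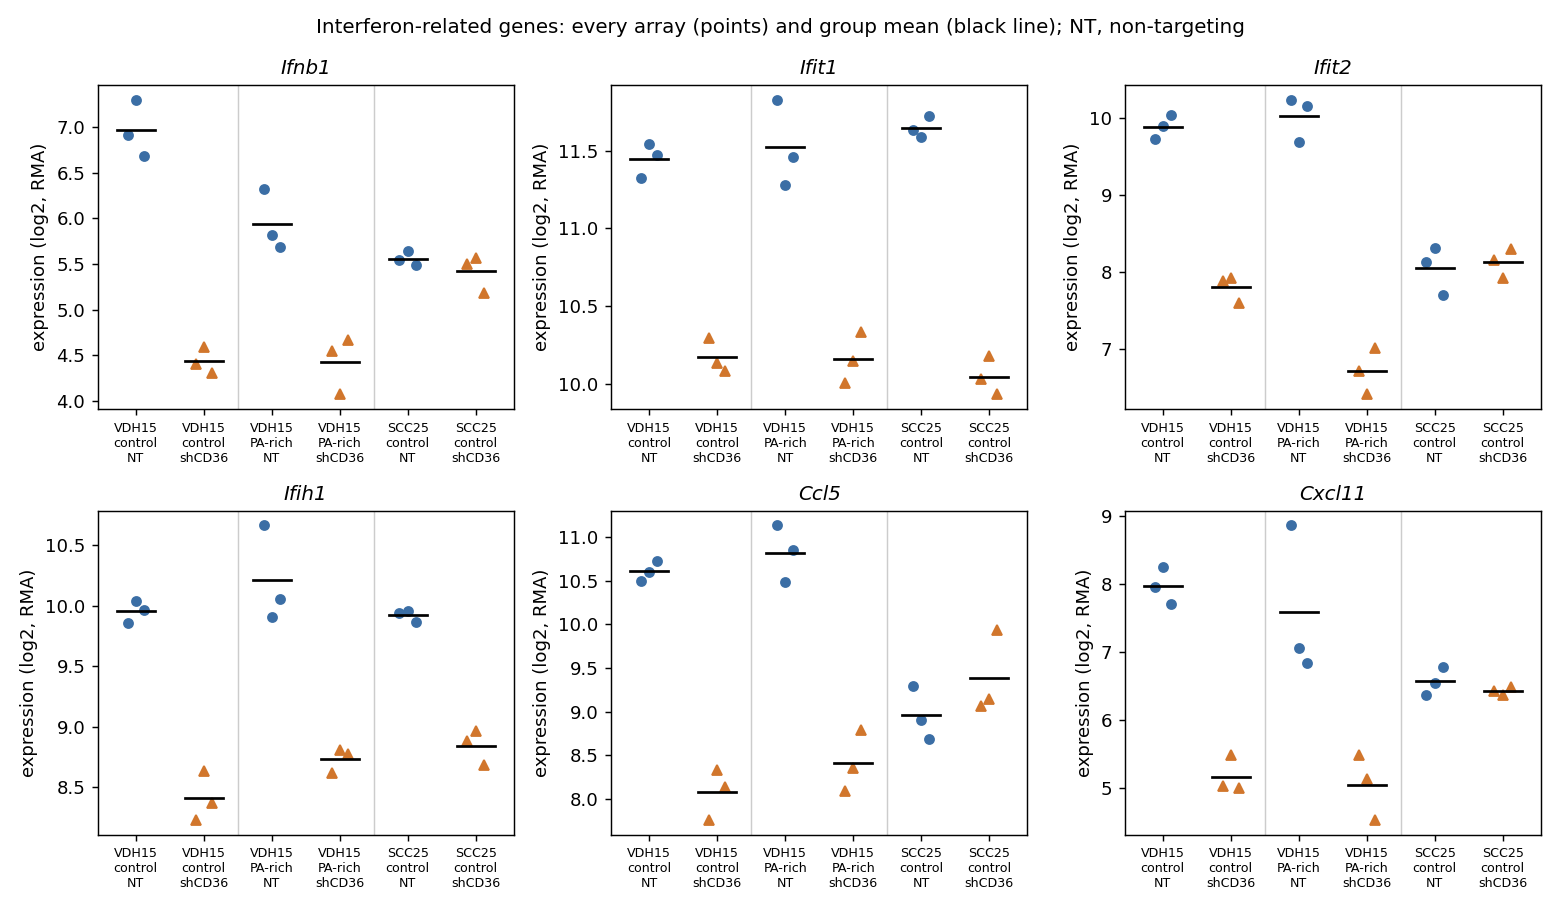
Log2 expression on each array (points) and group mean (black lines) of Ifnb1, the antiviral genes Ifit1 and Ifit2, the RNA sensor Ifih1 and the chemokines Ccl5 and Cxcl11, in the second VDH15 experiment on both diets and in SCC25 on control diet. In all 6 genes shCD36 lies below non-targeting on both VDH15 diets, whereas in SCC25 the arrays are separate in this way in Ifit1 and Ifih1 only among the 6.

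Other called genes known as interferon-stimulated lay outside that list and are named here after their values were seen. The ubiquitin ligase Herc6 fell by 1.34 ± 0.17 and the GTPase Gbp7 by 1.28 ± 0.16 log2. Samd9l (−0.83 ± 0.12), the apolipoprotein Apol9a (−0.79 ± 0.14), the chaperone Rtp4 (−0.73 ± 0.13), the ADP-ribosyltransferase Parp14 (−0.69 ± 0.13), Slfn2 (−0.67 ± 0.10) and the exonuclease Isg20 (−0.48 ± 0.09) also fell. So did Mlkl, the executor of necroptosis (−0.62 ± 0.07), and Cd274, which codes for PD-L1 (−0.50 ± 0.09). The antigen presentation list, which interferons can also induce, had 0 of 11 members called, with a median of −0.02 log2. Its immunoproteasome gene Psmb8 stood at −0.60 ± 0.18, H2-D1 at −0.23 ± 0.08 and Nlrc5 at −0.33 ± 0.19.

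Chemokine genes gave the other large differences. Cxcl11, a ligand of Cxcr3, measured 7.95, 8.24 and 7.70 log2 on the non-targeting arrays and 5.02, 5.48 and 4.99 on the shCD36 arrays, a difference of −2.80 ± 0.43 (adjusted p = 0.00809). Its shCD36 arrays 1 and 3 lay under the expression filter. A second probe set of Cxcl11, at a mean of 5.27 log2, differed by −0.63. Ccl5, which attracts T cells and monocytes, measured 10.50, 10.61 and 10.72 log2 against 7.76, 8.33 and 8.13, a difference of −2.54 ± 0.20 (adjusted p = 0.000101). Every shCD36 array lay more than 2 log2 below every non-targeting array in this gene. Cxcl10 measured 11.93, 12.10 and 11.99 log2 against 10.97, 10.86 and 10.79, a difference of −1.14 ± 0.12. Ccl4 (−1.20 ± 0.16) and the monocyte attractant Ccl2 (−0.93 ± 0.17) fell, and Ccl7 (−1.09 ± 0.22) missed the threshold at an adjusted p of 0.054.

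Of 28 measured inflammatory cytokines and chemokines, 5 were called lower and 0 higher (7 and 1 without the PA array that stood apart), and the list median was 0.06 log2. The falls were therefore limited to some of its members. Il33, an alarmin of epithelial and stromal nuclei, measured 8.61, 8.61 and 8.42 log2 without CD36 silencing and 5.97, 7.03 and 7.12 with it, a difference of −1.84 ± 0.24 (adjusted p = 0.00273). Its shCD36 array 1 lay more than 1 log2 under the other two of that side. Tnf (−0.61 ± 0.16), Il1b (0.07 ± 0.28), Il6 (0.09 ± 0.15), Cxcl1 (0.20 ± 0.10) and Cxcl9 (0.00 ± 0.32) did not pass. Called chemokine-related genes outside the list were Cxcl11, described above, Ccl21b (−0.82 ± 0.12), whose probe set can also read near-identical Ccl21 copies, and the chemokine-binding receptor Ccrl2 (−0.81 ± 0.13). Acod1, which makes itaconate in activated myeloid cells, measured 8.74, 9.20 and 9.03 log2 against 7.54, 7.21 and 6.78, a difference of −1.81 ± 0.22 (adjusted p = 0.00186).

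Markers of myeloid cells were read beside these genes. Of 19 macrophage and myeloid genes 0 were called, with a median of 0.07 log2. Their mean level lay between 6.09 and 6.28 log2 on the non-targeting arrays and between 6.02 and 6.25 on the shCD36 arrays, so both sides overlapped. The macrophage genes Cd68 (−0.01 ± 0.16), Csf1r (−0.12 ± 0.11) and Aif1 (−0.04 ± 0.14) were near 0, Cx3cr1 stood at 0.22 ± 0.09, and Mrc1 (−0.68 ± 0.29) and Arg1 (−1.34 ± 0.59) did not pass. Of 9 neutrophil genes 0 were called, but their mean level did not overlap (7.02 to 7.32 against 6.35 to 6.62 log2). S100a9 stood at −1.84 ± 0.38 (adjusted p = 0.06), S100a8 at −1.54 ± 0.32 (adjusted p = 0.0632) and Lcn2 at −1.70 ± 0.44, and without the PA array that stood apart 3 members of this list were called lower. In bulk samples such as these, fewer cells of a type and less RNA per cell cannot be told apart, and the part of either in the differences above was not tested.

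The collagen genes Col1a1, Col5a1 and Col5a3 were higher in shCD36 tumours. Col5a3, a minor fibrillar collagen chain, measured 8.736, 8.799 and 9.004 log2 on the non-targeting side and 10.218, 10.377 and 10.946 log2 on the shCD36 side, a difference of 1.67 ± 0.20 (adjusted p = 0.00178). A second probe set of Col5a3, at a mean of 8.66 log2, differed by 0.56. Col1a1, the main chain of collagen I, measured 11.11, 11.76 and 11.48 log2 against 12.65, 12.66 and 12.87, a difference of 1.28 ± 0.17 (adjusted p = 0.00282). Col5a1 rose by 1.26 ± 0.24 log2 (adjusted p = 0.0378). All 3 shCD36 arrays were above all 3 non-targeting arrays in each of these genes. The call of Col5a1 was lost in 5 of the 6 fits that left out 1 compared array, and those of Col1a1 and Col5a3 in 0. Other probe sets of Col5a1 differed by 0.98 and 0.48 log2. The collagen and cross-linking list had 20 measured members, among them Col5a1 and Col5a3 but not Col1a1, which is on the fibroblast list. These 2 were called higher and 0 lower, with a list median of 0.20 log2. Arrays lay wholly above in 9 and wholly below in 2, against 10.2% and 9.94% of all genes. Leaving out the PA array that stood apart, 4 were called higher. Col6a3 (1.42 ± 0.37), Col5a2 (0.88 ± 0.25), Col6a2 (0.58 ± 0.24) and the cross-linking enzyme Lox (0.84 ± 0.37) did not pass. Basement membrane chains lay on the other side of 0, with Col4a1 at −0.21 ± 0.18 and Col4a2 at −0.31 ± 0.20, also without passing. 

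Fibroblast genes had a median of 0.67 log2, the highest of the 31 lists, and 2 of 16 were called higher, Col1a1 and Cthrc1 (0.77 ± 0.14), which is secreted by activated fibroblasts. With the PA array left out that stood apart, 4 of the 16 were called higher. Postn (0.91 ± 0.21), Serpinf1 (1.01 ± 0.24), Lum (0.87 ± 0.43) and Dpt (0.84 ± 0.67) were higher on average and did not pass, and Dcn (−0.05 ± 0.23) and Pi16 (−0.03 ± 0.13) were near 0. The mean level of the list was 8.58 to 8.95 log2 on the non-targeting and 8.96 to 9.48 log2 on the shCD36 arrays. Its part in the collagen difference was not tested. Matrix glycoproteins and proteoglycans had 0 of 21 called and a median of 0.16 log2, with Bgn at 0.88 ± 0.29, Ccn2 at 0.76 ± 0.23 and Fn1 at −0.42 ± 0.14. Matrix proteases and inhibitors had 0 of 19 called and a median of −0.02, with Timp1 at 1.10 ± 0.28, Timp3 at −0.67 ± 0.17, Plat at −0.72 ± 0.16 and Plau at −0.34 ± 0.09. Without that array 3 of these 19 were called lower and 1 higher.

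Other genes called higher had varied roles. Slc7a2, a carrier of arginine and lysine, measured 8.35, 8.32 and 8.06 log2 against 9.90, 9.82 and 9.92, a difference of 1.64 ± 0.30 (adjusted p = 0.0294). Fst, which codes for follistatin, an inhibitor of activins, measured 9.22, 9.54 and 9.40 log2 against 10.74, 10.62 and 10.49, a difference of 1.23 ± 0.10 (adjusted p = 0.000101). It had the smallest p of the genes called higher. The olfactomedin-like matrix gene Olfml3 (1.18 ± 0.15), the serpin Serpina9 (1.49 ± 0.27), the annexin Anxa9 (1.01 ± 0.18), Rarres1 (0.94 ± 0.14), the planar polarity gene Prickle2 (0.90 ± 0.12) and Mtap, which recycles methionine from polyamine synthesis (0.76 ± 0.11), also rose. Anxa9, Serpina9 and Rarres1 were weak signals on the non-targeting side, at 4.98, 5.31 and 5.82 log2. The calls of Slc7a2 and Serpina9 were lost in all 6 fits that left out 1 compared array. The remaining genes called higher were Tktl1 (0.68), Dcun1d4 (0.53), Rassf8 (0.42) and C1qtnf12 (0.35).

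Among other genes called lower, Sprr2a1, a cornified envelope precursor, had the smallest p of all. It measured 10.80, 10.81 and 10.66 log2 against 8.96, 9.20 and 8.89, a difference of −1.74 ± 0.12 (adjusted p = 6.43e-05). Near-identical Sprr2a copies can share its probe set. It was the only one of 23 measured genes of differentiated epithelium that was called, and the list median was 0.05 (2 others were called higher without the PA array that stood apart), with Sprr3 at 1.28 ± 0.49, Lce3c at 0.31 ± 0.09 and Lor at 1.08 ± 1.04. The antimicrobial peptide gene Defb1 fell by 1.05 ± 0.10 log2. Zfp945, a zinc finger gene, fell by 1.78 ± 0.14 log2, and its other 2 probe sets, with means of 5.07 and 5.05 log2, differed by −0.67 and −0.30.

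Genes of metabolism and transport called lower were Lipg, the endothelial lipase (−0.88 ± 0.12), Txnip, which restrains glucose uptake (−0.62 ± 0.09), the glycolytic activator Pfkfb3 (−0.64 ± 0.08), the amino acid carrier Slc38a4 (−1.16 ± 0.17), Lpcat3 (−0.55 ± 0.09), Sgms2 (−0.62 ± 0.11) and Smox (−0.51 ± 0.09). Pfkfb3 was the only one of 22 hypoxia and glycolysis genes called. Neural and cytoskeletal genes called lower were the sodium channel Scn3a (−1.22 ± 0.17), Lgi2 (−1.04 ± 0.13), Dpysl2 (−0.69 ± 0.14), Marcksl1 (−0.81 ± 0.11), Tnik (−0.86 ± 0.10) and the small GTPase Rhoc (−0.76 ± 0.15). The mean of all probe sets of Tnik gave −0.20 log2 and no call. Genes with other roles were the polymerase subunit Polr2g (−0.98 ± 0.10), the stress phosphatase subunit Ppp1r15a (−0.60 ± 0.11), Arid5a (−0.59 ± 0.09), the phosphatase Ptprj (−0.60 ± 0.10), Depp1 (−0.68 ± 0.08), Tspan33 (−0.78 ± 0.10) and Tspan18 (−0.72 ± 0.14). The other genes called lower were Rsbn1l, Ccdc141, Adamtsl1, Tigd2, Gm9706, Rassf4, Prnd, Zcchc2, AU020206, 2610311E24Rik, 6720468P15Rik, Pwwp2b, Nsmce1 and Fam167a, at −1.24 to −0.38 log2. The probe set of Gm9706 (−1.05 log2) is of a type that similar transcripts can share, so the gene it read is not certain.

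Lists of the nervous tissue the fraction is named for had 0 called genes over the 12 arrays. Without the PA array that stood apart, Sema3a (adjusted p = 0.000361) and Ntn1 (adjusted p = 0.0402) of the axon guidance list were called lower by limma. In the neuropeptide list Calcb was then called higher (adjusted p = 0.0334) and Calcrl lower (adjusted p = 0.0431). The Schwann cell and glial list had 0 of 10 measured members called and a median of 0.08 log2, with Egr2 at 0.52 ± 0.17, Pmp22 at 0.24 ± 0.09, Ncam1 at 0.47 ± 0.22 and L1cam at −0.18 ± 0.13. In the nerve injury and repair list 0 of 14 were called, and Gap43, a growth cone protein, stood at −0.64 ± 0.18, Gdnf at 0.35 ± 0.13 and Artn at −0.35 ± 0.16. Galanin, a neuropeptide, and its receptors did not pass, with differences of 0.24 ± 0.13 for Gal, 0.10 ± 0.10 for Galr1 and 0.00 ± 0.10 for Galr3, while Galr2 did not reach the filter. Of 13 measured galanin and neuropeptide genes 0 were called, and Calcb, which codes for a form of CGRP, came nearest at 1.10 ± 0.23 (adjusted p = 0.06), ahead of Nmu at 0.92 ± 0.24, Nmb at −0.26 ± 0.09 and Calcrl at −0.84 ± 0.30. Neuron and synapse genes had 0 of 10 called and axon guidance genes 0 of 29, with Th at −0.30 ± 0.14, Ntn1 at −0.54 ± 0.18 and Sema3a at −0.99 ± 0.39. 

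Endothelial genes had the lowest median after the interferon list, −0.34 log2, with 16 of 20 below 0. Arrays lay wholly below in 13 of the 20, against 9.94% of all genes. None of the 20 was called by limma over the 12 arrays. Without the PA array that stood apart 6 were called lower, against 1.41% of all genes. Flt4 (−1.01 ± 0.29), Tie1 (−0.80 ± 0.21), Egfl7 (−0.61 ± 0.17) and Lyve1 (−0.49 ± 0.14) had the smallest p, and Pecam1 stood at −0.43 ± 0.18. The mean level of the list was 8.98 to 9.11 log2 on the non-targeting and 8.60 to 8.80 log2 on the shCD36 arrays, and the part of vessel cells in the lower genes was not tested. Pericyte genes (median 0.15 over 10, Rgs5 at 1.08 ± 0.29), skeletal muscle genes (−0.03 over 12), red blood cell genes (0.13 over 4) and adipocyte genes (−0.05 over 6, Lipe at −0.44 ± 0.10) had 0 called.

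Genes of lipid use and of general cell state were close to the background of all genes. Fatty acid uptake, oxidation and PPAR target genes had 0 of 22 called and a median of −0.02 log2, with Fabp4 at 0.45 ± 0.16, Plin2 at −0.31 ± 0.12, Plin4 at −0.24 ± 0.09 and Acadm at 0.33 ± 0.14. Fatty acid synthesis genes had 0 of 16 called (median 0.05, Fads3 at 0.32 ± 0.12) and cholesterol synthesis genes 0 of 18 (median −0.12, Insig1 at −0.48 ± 0.17, Fdft1 at −0.41 ± 0.13). The TGF-beta pathway had 0 of 20 called and a median of 0.10, with Tgfbi at 0.45 ± 0.09 and Bmp2 at 0.54 ± 0.12. Also with 0 called were oxidative phosphorylation (0.06 over 28), cell cycle (0.09 over 30), immediate early (0.03 over 20), heat shock (0.03 over 9), endoplasmic reticulum stress (−0.09 over 20) and basal keratinocyte genes (0.02 over 13). Without the PA array that stood apart, 2 TGF-beta pathway genes and 1 basal keratinocyte gene were called higher, and 1 adipocyte and 1 antigen presentation gene lower.

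**Figure D3:**
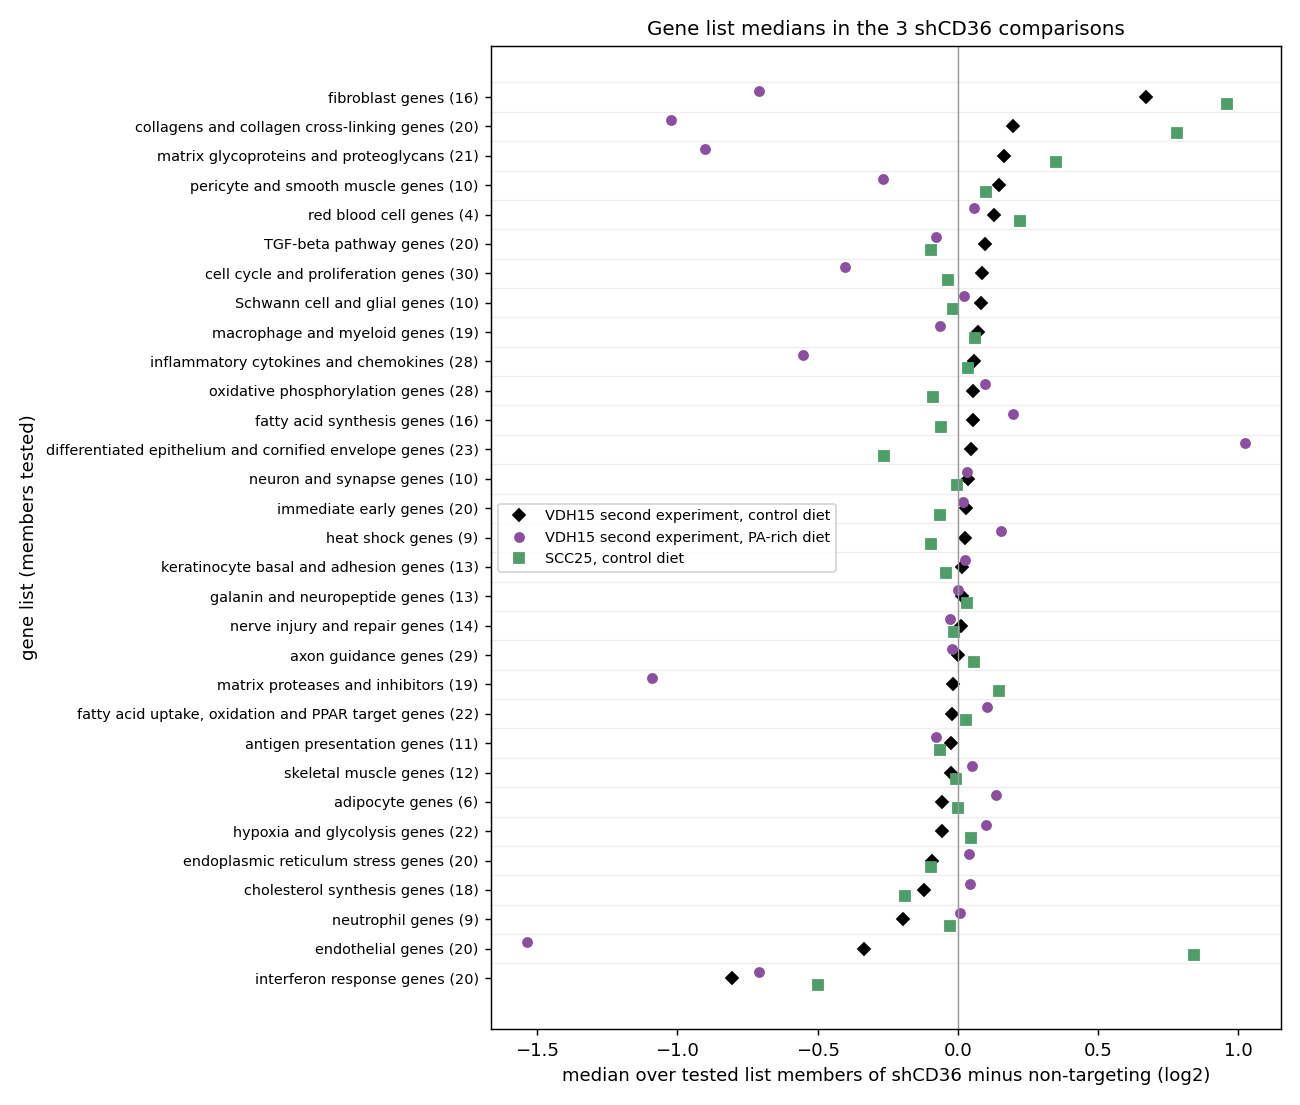
Median over the tested members of each of 31 gene lists (number of members in brackets) of the shCD36 minus non-targeting difference, in log2, in the second VDH15 experiment on control diet (diamonds) and PA-rich diet (circles) and in SCC25 on control diet (squares). The interferon list lies below 0 in all 3, at −0.81, −0.71 and −0.50, whereas the fibroblast list is at 0.67 and 0.96 on control diet and −0.71 on the PA-rich diet.

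The same shRNAs were compared on the PA-rich diet, on other arrays of the experiment. There 1551 genes (12.1%) were called higher and 1652 (12.9%) lower, against 16 and 69 on control diet. The SD of the difference across genes was 0.436 log2 on the PA-rich diet and 0.208 on control diet. Leaving out the PA array that stood apart, 1193 genes were called higher and 1404 lower on the PA-rich diet. On control diet 86 and 181 were then called, and the SD on the PA-rich diet was 0.37 log2. Of the 69 genes called lower on control diet, 64 were below 0 on the PA-rich diet and 55 were called lower there, and 2 were called higher. Of the 16 called higher, 6 were above 0 and 5 were called higher, while 7 were called lower. Without the PA array that stood apart, these counts were 53 and 3 for the genes called lower, and 5 and 7 for the genes called higher. Across all genes the differences on both diets correlated at r = 0.29, a description over genes, which are not independent replicates.

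Several interferon-stimulated and chemokine genes fell on both diets. Ccl5 differed by −2.41 ± 0.20 log2 on the PA-rich diet, Ifih1 by −1.47 ± 0.17 and Ifit1 by −1.36 ± 0.13. The zinc finger gene Zfp945, of neither kind, differed by −1.79 ± 0.14 there. The diet difference, that is the shCD36 difference on the PA-rich diet less that on control diet, was called lower in 741 genes (5.78%) and higher in 483 (3.77%). Ifit2 differed by −3.31 ± 0.17 on the PA-rich diet, more than on control diet (diet difference −1.23 ± 0.24, adjusted p = 0.0108), and Acod1 by −3.29 ± 0.22 (diet difference −1.48 ± 0.31, adjusted p = 0.0131). Ifnb1 differed less there, by −1.51 ± 0.20 (diet difference 1.02 ± 0.29, adjusted p = 0.0443), with non-targeting arrays at 6.33, 5.82 and 5.68 log2. In the interferon list the diet difference was called in 5 of 20, 2 higher and 3 lower.

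The 3 collagen genes called higher on control diet were called lower on the PA-rich diet. Col1a1 measured 13.74, 13.41 and 13.19 log2 on the non-targeting and 11.78, 11.94 and 11.67 on the shCD36 arrays of the PA-rich diet, a difference of −1.65 ± 0.17 against 1.28 on control diet. Col5a3 stood at −1.81 ± 0.20 and Col5a1 at −1.35 ± 0.24 on the PA-rich diet. Diet differences were −2.93 ± 0.24 in Col1a1 (adjusted p = 0.000153), −3.48 ± 0.28 in Col5a3 and −2.61 ± 0.34 in Col5a1. Of 20 collagens and cross-linking genes 11 had a diet difference called lower and 0 higher, and of 16 fibroblast genes 9 and 0. Without the PA array that stood apart the collagen median on the PA-rich diet was −0.75 in place of −1.02, and the fibroblast median −0.45 in place of −0.71. Col6a3 had the lowest called diet difference (−3.65 ± 0.53), followed by Col5a3, Col1a1, Lox (−2.84 ± 0.52) and the stromelysin gene Mmp3 (−2.80 ± 0.50). At the other end stood the calgranulin genes S100a8 (3.84 ± 0.46) and S100a9 (3.08 ± 0.54), the whey acidic protein gene Wfdc18 (3.78 ± 0.61), the metalloproteinase Adam28 (2.48 ± 0.22) and the phospholipase Pla2g4f (2.25 ± 0.65). Pla2g4f stood at 1.48 without the PA array that stood apart, below Il33 (2.32) and Sprr2a1 (2.10). Sprr2a1, which fell on control diet, rose on the PA-rich diet by 0.49 ± 0.12 log2 (diet difference 2.22 ± 0.17). Il33 stood at 0.40 ± 0.24 there without being called (diet difference 2.24 ± 0.34).

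**Figure D4:**
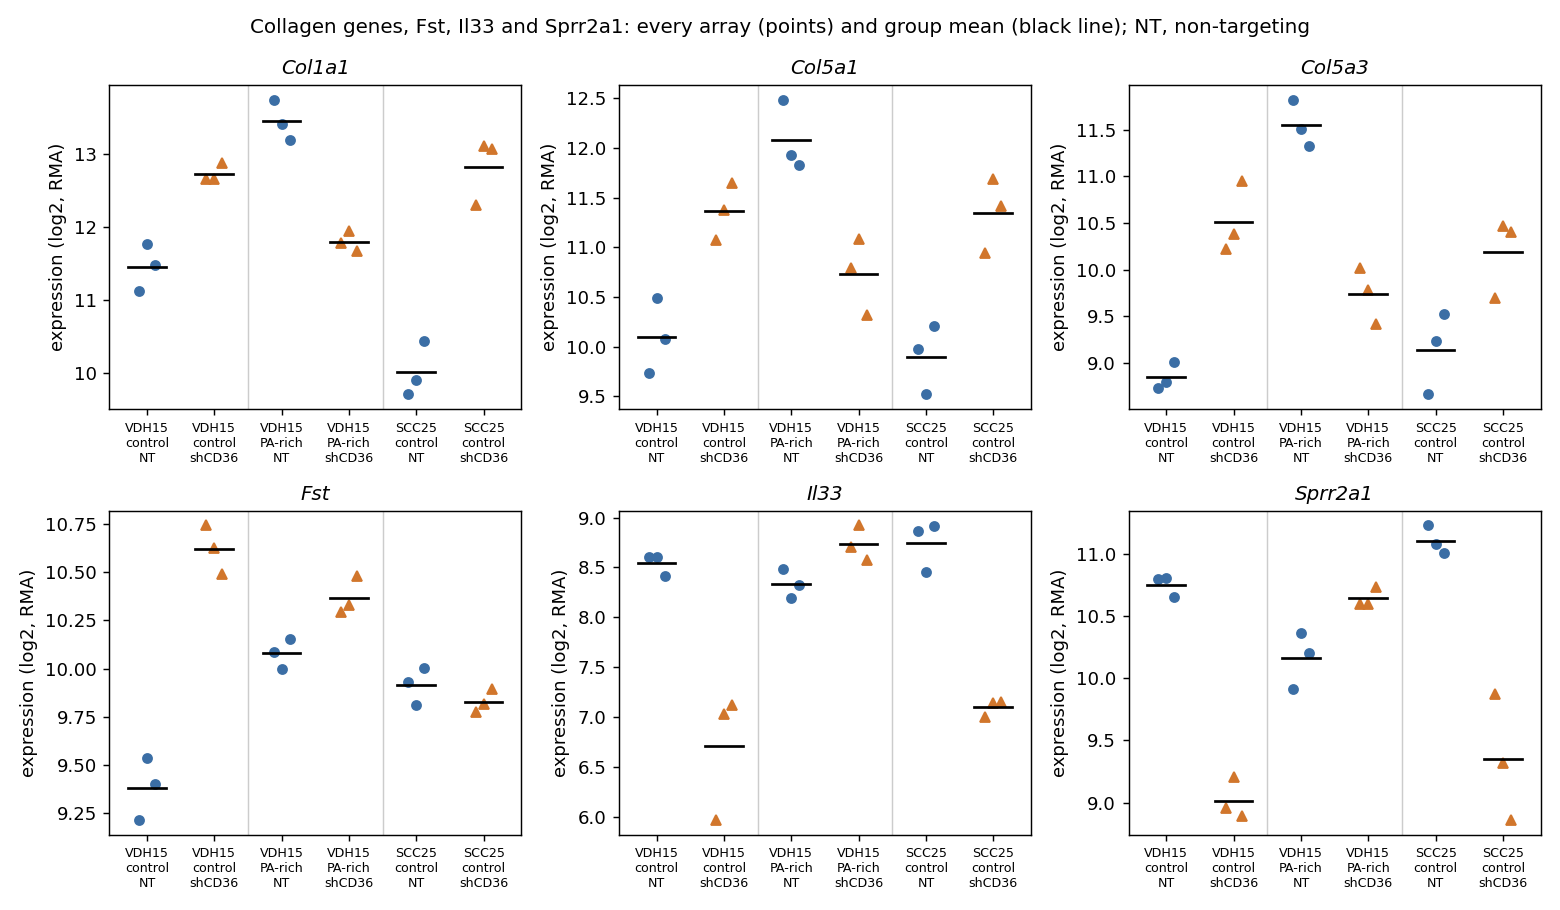
Log2 expression on each array (points) and group mean (black lines) of Col1a1, Col5a1, Col5a3, Fst, Il33 and Sprr2a1 in the second VDH15 experiment on both diets and in SCC25 on control diet. The 3 collagen genes are higher with shCD36 on control diet in both experiments and lower with it on the PA-rich diet, where non-targeting arrays are highest.

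SCC25 gave the same comparison in tumours of another carcinoma line, on arrays that are not shared. On control diet 493 genes (3.84%) were called higher and 724 (5.65%) lower with shCD36 there. Of the 69 genes called lower in VDH15, 48 were below 0 in SCC25, 27 were called lower and 8 were called higher. In SCC25 these 8 stood at 1.10 (Ccl21b), 0.92 (Dpysl2), 0.75 (Rhoc), 0.68 (Ccrl2), 0.62 (Scn3a), 0.51 (Pfkfb3), 0.48 (Tspan18) and 0.32 log2 (2610311E24Rik). Of the 16 called higher in VDH15, 9 were above 0 in SCC25, 5 were called higher and 1 was called lower. Across all genes r was 0.10. In all 3 comparisons 18 genes were called lower and 0 higher. Passing over provisional names such as Gm9706, the leading ones by the smallest of their 3 differences were Ifit1, Ifih1, Samd9l, Gbp7, Parp14, Herc6, Rtp4 and Lipg. In SCC25, Ifit1 stood at −1.60 ± 0.10 and Ifih1 at −1.08 ± 0.08 log2. Samd9l stood at −0.77 ± 0.09, Gbp7 at −0.70 ± 0.10, Parp14 at −0.73 ± 0.10, Herc6 at −0.68 ± 0.16, Rtp4 at −0.97 ± 0.07 and Lipg at −0.67 ± 0.13 log2. Of the 20 interferon response genes 13 were called lower in SCC25, with a list median of −0.50.

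**Figure D5:**
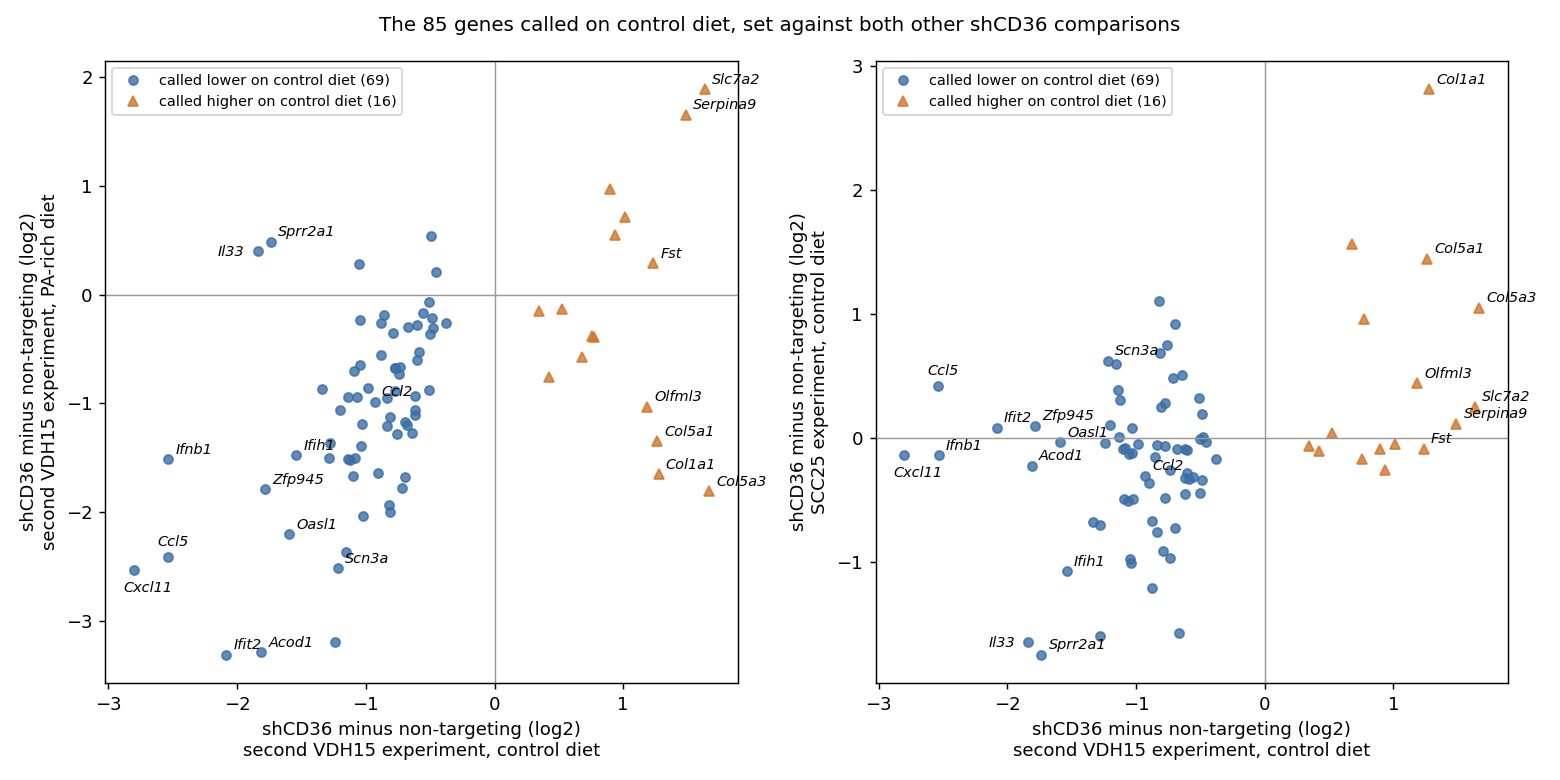
Difference of shCD36 minus non-targeting in log2 for the 85 genes called on control diet in the second VDH15 experiment (x axis), against the PA-rich diet of that experiment (left) and SCC25 on control diet (right). Circles are the 69 genes called lower and triangles the 16 called higher. On the left 64 circles and 6 triangles keep their side of 0, on the right 48 and 9.

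Ifnb1 and the chemokine genes with the largest falls in VDH15 were not called in SCC25. Ifnb1 measured 5.54, 5.64 and 5.49 log2 on the non-targeting arrays of SCC25 and 5.50, 5.57 and 5.19 with shCD36, a difference of −0.14 ± 0.10. Ccl5 stood at 0.42 ± 0.36, Cxcl11 at −0.14 ± 0.10, Cxcl10 at 0.01 ± 0.07 and Ifit2 at 0.08 ± 0.16. The difference between both experiments, VDH15 less SCC25, was called lower in 226 genes (1.76%) and higher in 256 (2%). Tumour line, experiment and array batch cannot be told apart in it. It was −2.39 ± 0.24 log2 in Ifnb1 (adjusted p = 4.83e-06), −2.95 ± 0.47 in Ccl5, −2.66 ± 0.47 in Cxcl11, −1.14 ± 0.14 in Cxcl10 and −2.17 ± 0.26 in Ifit2. Col3a1 (−3.07 ± 0.58) and the fibronectin gene Fn1 (−2.39 ± 0.29) were also among the lowest 5. They rose by 3.94 and 1.97 log2 with shCD36 in SCC25.

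At the other end of the difference between experiments stood the cornified envelope gene Sprr2d (1.93 ± 0.39), Phlda1 (1.83 ± 0.17), Calcb (1.76 ± 0.30), the epithelial surface gene Plet1 (1.61 ± 0.32) and Dennd1b (1.42 ± 0.21). In SCC25 they differed by −3.09, −1.49, −0.65, −1.59 and −0.59 log2 in that order, and all 5 were called lower there. On control diet in VDH15 they stood at −1.17 ± 0.29, 0.34 ± 0.14, 1.10 ± 0.23, 0.02 ± 0.29 and 0.83 ± 0.18 log2, which did not pass. Sprr2a1 (−1.75 ± 0.20) and Il33 (−1.65 ± 0.12) fell in SCC25 as in VDH15, with differences between experiments of 0.02 ± 0.25 and −0.20 ± 0.28 that were not called.

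The 3 collagen genes called on control diet in VDH15 were called higher in SCC25 as well. Of the 20 listed collagens and cross-linking genes, 14 were called higher in SCC25, with Col5a1 at 1.44 ± 0.24 and Col5a3 at 1.05 ± 0.27. Col1a1, of the fibroblast list, stood at 2.81 ± 0.45. Col1a1 measured 9.70, 9.90 and 10.43 log2 on the non-targeting arrays of SCC25 and 12.30, 13.10 and 13.06 with shCD36, without overlap. Endothelial genes, by contrast, stood at a median of 0.84 log2 in SCC25 against −0.34 in VDH15, with the difference between experiments called lower in 11 of 20. Averaging the arrays of each of the 11 groups and fitting the averages together called 0 of 12823 genes (0%) by limma. This takes a tumour line as 1 of n = 2 replicates of the shCD36 comparison. The 11 include groups of the first VDH15 experiment, which had no shCD36 arrays, and without them 0 genes were called too. Of the 12823 genes, 435 had an unadjusted p under 0.05 in the fit of 11 averages. That is fewer than this threshold would pass with no difference in any gene. The smallest adjusted p was 0.0641.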

How the data were processed

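RNA of neural-fraction cells was measured on 36 arrays in 11 groups. Per the submitters' processing notes the deposited log2 values were made by the authors with RMA in affy, versions not given in the sources used here. In the deposited values every coefficient of the hybridisation and scan batch was below 1e-06 in 100% of 45141 probe sets with diet and shRNA in the model, against 0.00222% without them, so they had been adjusted for batch with diet and shRNA kept. The 12 arrays of the second VDH15 experiment share 1 hybridisation and 1 scan batch.

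Of the 28898 probe sets with 1 gene, each gene was read from the one with its highest mean (36 arrays). Probe sets with several genes (551) or none (15692) were not used. Of 17097 genes, the 25% with the lowest mean (under 5.19 log2) were left out, which left 12823. The 12 arrays of the second VDH15 experiment, in 4 groups with 8 residual degrees of freedom, were fitted with limma 3.58.1 (R 4.3.3), and genes were called at a Benjamini-Hochberg adjusted p under 0.05. SCC25 was fitted on its own 12 arrays and the difference between experiments on 24 arrays. The averages of all 11 groups, those of the first VDH15 experiment included, were fitted together with condition and experiment as terms. The control-diet comparison on 12 arrays was checked on simulated data, and the other fits were not.

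The number of arrays, 3 a side, limits the precision. Arrays of equal title number deviated with r of −0.30, −0.10 and −0.21 and were not paired, and 0 pairs of the 36 arrays were identical. Alternatives were the arrays in the fit, the replicate block, the filter, the probe set rule, scaling, the variance prior and leaving out arrays. The comparison, the 31 gene lists and the tests were chosen with earlier results of these data known. Named by rule were the 12 highest and 12 lowest called differences, up to 4 members per list with the smallest p, 5 per direction of each tested difference, up to 8 per direction called in all 3 comparisons, and Cd36, Gal and Galr1 to Galr3, passing over provisional names. All other genes were named after their values were seen.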

Additional observations from a re-analysis of the deposited data

Results flagged for a closer look

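Among the 48 genes named outside the list rule, 23 had a shCD36 difference on the PA-rich diet that differed from that on control diet in the second VDH15 experiment, by limma's test of the difference (adjusted p from 0.000153 to 0.0493, over 12823 genes). The value, PA-rich less control diet in log2, was below 0 in the matrix genes Col6a3 (−3.65), Col5a3 (−3.48), Col1a1 (−2.93), Lox (−2.84), Mmp3 (−2.80), Col5a1 (−2.61), Olfml3 (−2.21), Col3a1 (−1.80), Fn1 (−1.23) and Cthrc1 (−1.16). It was also below 0 in Acod1 (−1.48), Ifit2 (−1.23), Mtap (−1.14) and Fst (−0.95). It was above 0 in Ifnb1 (1.02), Sprr2d (2.09), Sprr2a1 (2.22), Il33 (2.24), Pla2g4f (2.25), Adam28 (2.48), S100a9 (3.08), Wfdc18 (3.78) and S100a8 (3.84). Without the non-targeting PA array that stood apart Pla2g4f stood at 1.48, and Col3a1 (−1.54) was no longer called (adjusted p = 0.0645, limma).

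In 22 of the 48 genes the control-diet difference in VDH15 differed from that in SCC25, by the same kind of test (adjusted p from 4.36e-06 to 0.0303). The value, VDH15 less SCC25 in log2, was below 0 in Col3a1 (−3.07), Ccl5 (−2.95), Cxcl11 (−2.66), Ifnb1 (−2.39), Fn1 (−2.39), Ifit2 (−2.16), Zfp945 (−1.88), S100a9 (−1.72), Acod1 (−1.58) and Oasl1 (−1.55). It was above 0 in Mtap (0.93), Prickle2 (0.99), Anxa9 (1.07), Rarres1 (1.20), Fst (1.32), Serpina9 (1.38), Slc7a2 (1.38), Dennd1b (1.42), Plet1 (1.61), Calcb (1.76), Phlda1 (1.83) and Sprr2d (1.93). Tumour line, experiment and batch cannot be told apart here, and each side is 1 biological replicate.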

How the results depend on the processing

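All 85 genes called on control diet kept their sign in each of the 22 alternatives that tested them. Some genes of weak signal, among them Ifnb1 and Ccl4, were tested in 21 only, since the filter of 1 setting left them out. Of the 85, 42 kept their call in each of the 6 fits that left out 1 of the compared arrays. In every alternative that tested them, 38 kept it. The count of called genes was 204 with the 6 compared arrays alone (81 of the 85 among them), 229 with all 36 arrays (79 among them) and 267 without replicate 1 of the non-targeting PA group (all 85 among them). It was 50 to 68 leaving out 1 of the 6 arrays, and 50 to 267 over all 12 arrays left out in turn, with 50 without non-targeting replicate 3 or shCD36 replicate 2, 54 without non-targeting replicate 1 and 55 without non-targeting replicate 2. With the replicate block of title numbers it was 70 (68 among the 85), and the other settings gave 78 to 104. The diet difference was called in 1224 genes, in 1011 with the replicate block, and in 736 to 1530 leaving out 1 array: 736, 745, 754 and 809 without non-targeting replicate 1 and shCD36 replicates 1, 2 and 3 on control diet, and 807 and 767 without shCD36 replicates 1 and 3 on the PA-rich diet. The difference between VDH15 and SCC25 was called in 482 genes, in 376 with the replicate block and in 958 without the non-targeting PA array. Of the named genes that were not called, some changed sign near 0: Acaca (−0.055) and Des (0.013) with the mean of all probe sets, Galr3 with quantile normalisation (−0.004) and leaving out 1 array (−0.047 to 0.041), Plet1 (−0.075 to 0.115) and Syt1 (−0.019 to 0.135) leaving out 1 array. The cause was not tested. Leaving out arrays of the PA groups was chosen after seeing the data. The limit of these data is the single biological replicate a side.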
